A study of Arabidopsis thaliana with 12 samples.

Results

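Genes of calcium and calmodulin signalling were followed in rosette leaves of formaldehyde-exposed Arabidopsis thaliana. Members were the probe sets paired with a single gene whose annotated symbol was IQD, CML, CAM, CPK, CDPK, CRK, CIPK, CBL, CNGC, GLR, ACA or CAX plus a number, with CML37 and CML38 left out. The rule found 27 probe sets for 27 genes, among 13513 probe sets paired with 1 gene and 22746 probe sets tested in all. They were 7 glutamate receptor-like genes (GLR), 5 calmodulin-like genes (CML) and 15 IQD genes. The other 9 families of the rule had 0 members in the annotation used, so calmodulins, the calcium-dependent kinases, the CBL and CIPK proteins, cyclic nucleotide-gated channels, calcium pumps and cation exchangers were not analysed here.

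All 12 plants were 7-week-old Columbia plants of the double transgenic AB genotype, which carry rmpA and rmpB from Mycobacterium gastri in the chloroplast. Together the products of these genes fix formaldehyde into sugar phosphate, and plants without them were not analysed here. After 72 h of acclimation in constant light at 24 °C, 3 plants stayed outside the chamber (under 0.08 ppm formaldehyde). In a chamber of 10 L, 3 plants each received air (under 0.04 ppm), low (1 to 2 ppm) or high (14 to 16 ppm) formaldehyde for 150 min. Plants of a chamber condition were placed in it together, so condition and chamber run cannot be told apart, and p-values measure the spread between plants.

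Calcium ions act as a second messenger in plant cells. A stimulus opens channels in the plasma membrane or in internal stores, cytosolic calcium rises, and sensor proteins with EF-hand loops bind it and change shape. Glutamate receptor-like proteins are calcium-permeable channels of that first step. Calmodulin-like proteins are sensors, and IQD proteins are plant-specific partners that bind calmodulin through IQ motifs and that in many cases decorate microtubules or the plasma membrane.

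Values are log2 intensities, made by the authors with GCRMA, and a difference of 1 stands for a 2-fold change. The lowest value of the table was 2.11, and 7 members stayed within 0.5 of it in every plant: GLR2.8, GLR2.9, CML43, IQD15, IQD16, IQD26 and IQD27. Their values there say nothing of a fall or of changes among dim levels, and a call of GLR2.8 as lower in high against air under quantile normalization rested on a change of -0.0024 (adjusted p = 0.0265). The other 20 members stood above that level in at least 1 plant, IQD18 barely so (2.20 to 2.71). Levels of different probe sets were not set against each other, since probes differ in brightness.

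Array medians lay between 5.68 and 5.82. Leaf identity was checked on mesophyll markers, of which 3 of 4 were measured by a probe set paired with 1 gene (RCA, LHCB4.1 and PRK). Their summed level was 16.13 to 16.24 in the outside, 16.08 to 16.18 in the air, 16.10 to 16.15 in the low and 15.88 to 16.02 in the high plants. RCA and LHCB4.1 make up most of the sum (high minus air -0.14 and -0.01). PRK averaged 13.69, 13.75, 13.77 and 12.79 in the outside, air, low and high plants (high minus air -0.96, limma adjusted p = 1.29e-05). Guard cell markers (FMA and AT1G22690, 2 of 4 measured) summed to 8.76 to 9.75 in the outside, 9.68 to 11.51 in the air, 11.53 to 11.66 in the low and 9.73 to 10.20 in the high plants. The sum follows AT1G22690 (means 9.11, 10.57, 11.57 and 10.00 in the outside, air, low and high plants), while FMA was highest in the outside plants (means 6.25, 5.02, 5.45 and 4.18 in the outside, air, low and high plants). The root marker PYK10 read 6.17 in air plant 3 and 2.11 in the other plants. By such a probe set, 0 of 2 phloem, 0 of 2 xylem and 0 of 2 epidermis markers were measured. The 3' minus 5' signal of GAPDH, a sign of RNA quality, was 0.05 to 0.12 in the outside, -0.03 to 0.15 in the air, -0.13 to 0.01 in the low and 0.20 to 0.29 in the high plants. That of ubiquitin was -0.51 to -0.44 in the high, against -0.42 to -0.27 in the low, air and outside plants. That of actin was 0.83 to 0.95 in the outside and 0.54 to 0.82 in the air plants, without overlap. It was 0.70 to 0.94 in the low and 0.76 to 1.05 in the high plants, and all other pairs of groups overlapped. Marker levels and all 3 RNA quality measures thus differed between some of the groups, and their part in the results below was not tested. In leaf RNA, fewer cells of a type and less RNA per cell cannot be told apart.

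High against air compares strong formaldehyde with air, both in a chamber, where dose and chamber run cannot be told apart. The families parted: 3 of 5 CML genes rose and 0 fell, 7 of 15 IQD genes fell and 1 rose, and 1 of 7 GLR genes fell and 0 rose. A gene was called, here and below, at a limma p-value under 0.05 after Benjamini-Hochberg adjustment over all 22746 probe sets. Of the 27 members 4 (14.8%) rose and 8 (29.6%) fell. Of all probe sets 14.7% rose and 19.9% fell, so the share of members that rose lay at the background. The share that fell was higher by a few genes, and neither is read as particular to these families. Median log2 changes were 1.67 for CML, -0.69 for IQD and -0.34 for GLR genes, and -0.19 for all members, beside 0.00 for all probe sets tested.

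**Figure D1:**
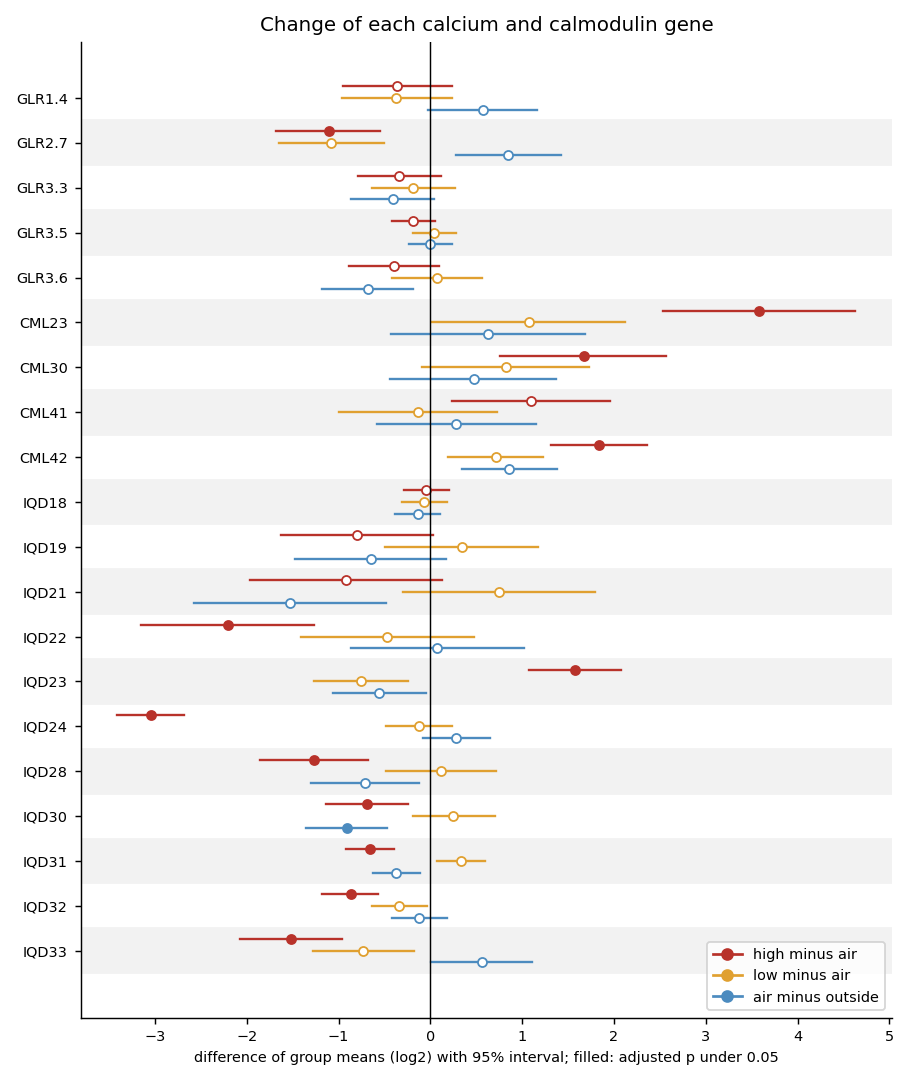
Differences of group means on the log2 scale (points) with 95% intervals from the limma fit (lines) for the 20 members above the lowest value, in high minus air, low minus air and air minus outside. Filled points passed an adjusted p of 0.05: 12 in high minus air, 0 in low minus air and 1 (IQD30) in air minus outside.

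Among the channel genes GLR2.7 alone passed in high against air. GLR2.7 (AT2G29120) belongs to a tandem group with GLR2.8 and GLR2.9 that is linked to calcium influx in immune signalling. Its values were 6.76, 6.89 and 7.03 in outside plants 1 to 3, 7.13, 8.09 and 8.01 in air plants, 6.94, 6.44 and 6.62 in low plants and 6.74, 6.75 and 6.40 in high plants. Each air plant stood above every other plant, plants 2 and 3 by about a log2 unit, and the low plants overlapped both the high and the outside plants. In high against air GLR2.7 fell by 1.11 ± 0.25 (SE) on the log2 scale, 2.16-fold (adjusted p = 0.0073). Set against the outside plants, the high plants had -0.26 (95% interval -0.83 to 0.30, adjusted p = 0.5141). Its 2 neighbours GLR2.8 and GLR2.9, with 0 protein-coding genes in between on chromosome 2, lay at 2.11 in all plants.

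GLR3.3 (AT1G42540) and GLR3.6 (AT3G51480) are needed for wound-induced electrical and calcium signals that travel from leaf to leaf. GLR3.3 averaged 6.93 ± 0.07 in the outside, 6.52 ± 0.44 in the air, 6.33 ± 0.19 in the low and 6.18 ± 0.11 in the high plants (SD, n = 3 each). GLR3.6 read 5.67, 6.02 and 5.52 in outside plants, 4.58, 5.41 and 5.16 in air plants, 5.09, 5.02 and 5.25 in low plants and 4.58, 4.56 and 4.81 in high plants. Both genes had their highest mean in the plants kept outside and their lowest in the high plants. Neither passed in high against air (-0.34, adjusted p = 0.2572, and -0.40, adjusted p = 0.2154), but both fell in high against outside, GLR3.3 by 0.75 (adjusted p = 0.0149) and GLR3.6 by 1.08 (adjusted p = 0.0034). Without air plant 1, high against air passed for GLR3.6, at -0.63 (adjusted p = 0.0232). GLR1.4, a channel gated by amino acids, averaged 4.11 ± 0.39 in the outside, 4.68 ± 0.31 in the air, 4.31 ± 0.42 in the low and 4.32 ± 0.11 in the high plants. GLR3.5 varied least among the 5 GLR genes above the lowest value, from 3.82 to 4.33 over all plants, and its high minus air difference of -0.19 had a 95% interval of -0.42 to 0.05.

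**Figure D2:**
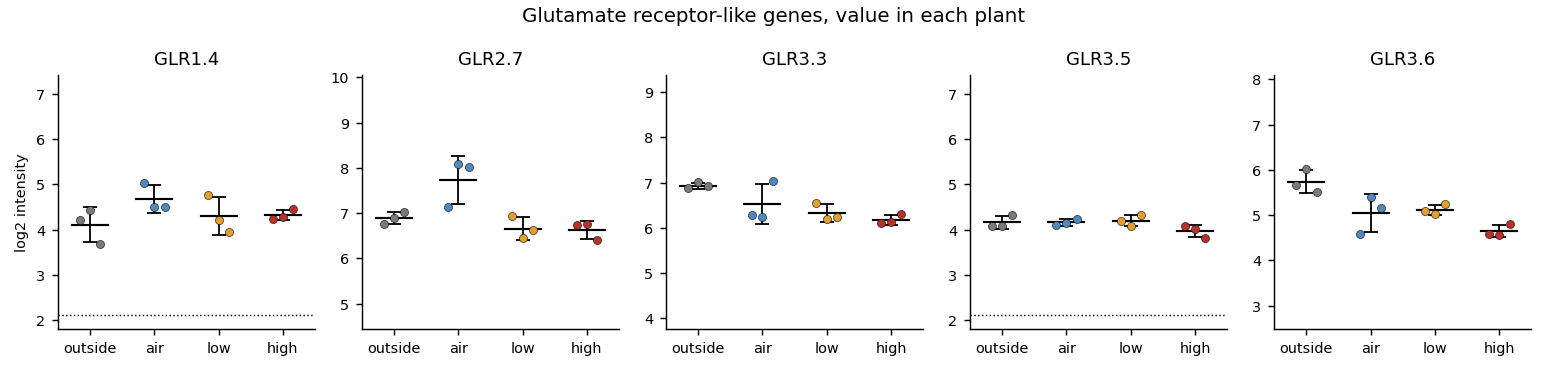
Log2 intensity of the 5 GLR genes above the lowest value in each plant (points), with group mean and SD (black, n = 3), over the outside, air, low and high groups. All panels span the same log2 range, and the dotted line is the lowest value, 2.11. GLR2.7 was highest in air plants 2 and 3, while GLR3.3 and GLR3.6 had their highest group mean in the outside plants. The highest single GLR3.3 value was that of air plant 3 (7.03).

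Among the sensors, CML23, CML42 and CML30 rose in high against air. CML23 (AT1G66400), a sensor that acts with its close relative CML24 in flowering time control, had the largest rise among the members. It read 4.90, 4.09 and 4.48 in outside plants 1 to 3, 5.86, 4.57 and 4.91 in air plants, 7.02, 5.89 and 5.64 in low plants and 8.18, 9.15 and 8.76 in high plants. Every high plant stood above all other plants, and the low and air plants overlapped. The high plants averaged 8.70 ± 0.49 and the air plants 5.11 ± 0.67 (SD, n = 3 each), a difference of 3.58 ± 0.46 (SE), or 12.0-fold (adjusted p = 0.000321).

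CML42 (AT4G20780) is a sensor known from trichome branching and from defence against insects. Its values were 6.70, 6.92 and 6.73 in outside plants, 7.89, 7.94 and 7.10 in air plants, 8.47, 8.06 and 8.54 in low plants and 9.62, 9.59 and 9.23 in high plants. The 4 groups did not overlap, in the order outside, air, low and high. High minus air was 1.84 ± 0.23 (SE), or 3.57-fold (adjusted p = 0.000262). Of the single steps, high minus low passed (1.12, adjusted p = 0.0045), while low minus air (0.71, adjusted p = 0.1546) and air minus outside (0.86, adjusted p = 0.0681) did not. Its paralogue CML43 lay between 2.11 and 2.13 in all plants.

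CML30 (AT2G15680), a sensor reported in mitochondria, read 8.17, 7.87 and 7.93 in outside plants, 9.32, 8.66 and 7.39 in air plants, 9.30, 9.11 and 9.43 in low plants and 9.97, 10.08 and 10.32 in high plants. The high plants stood above all others, and the air plants spread widely enough to overlap both the outside and the low plants. The rise in high against air was 1.67 ± 0.40 (SE), or 3.17-fold (adjusted p = 0.0100). It was 1.13 (adjusted p = 0.0036) without air plant 3 and 2.10 (adjusted p = 0.0014) without air plant 1.

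CML41 (AT3G50770), which acts at plasmodesmata, the channels between plant cells, was near the dim end. It read 2.43, 3.07 and 3.11 in outside plants, 3.38, 2.69 and 3.40 in air plants, 3.40, 3.11 and 2.55 in low plants and 4.36, 4.87 and 3.53 in high plants. The high plants stood above all others, high plant 3 by a small margin. High minus air was 1.10 with a 95% interval of 0.23 to 1.96, which missed the threshold (adjusted p = 0.0533). It passed in 1 of 12 fits that left out an array, at 1.46 without high plant 3 (adjusted p = 0.0128). Without high plant 2 it was 0.79 (adjusted p = 0.1743).

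**Figure D3:**
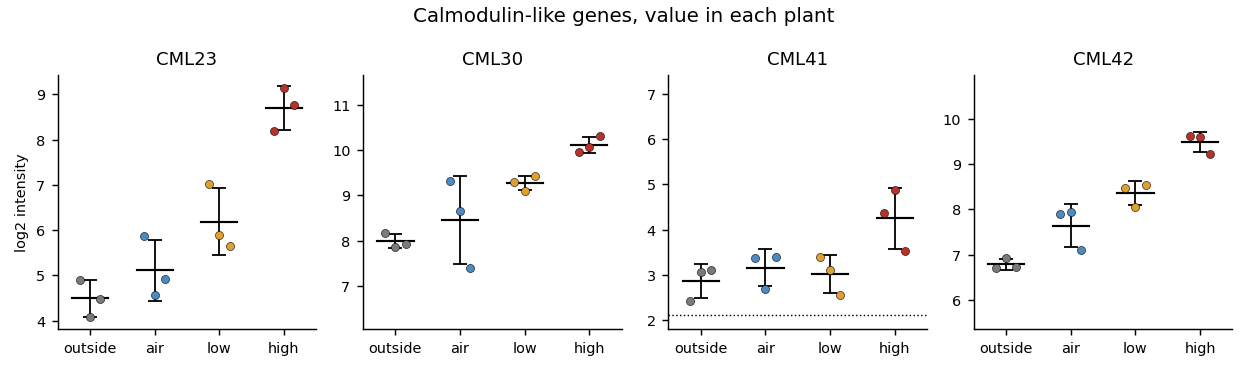
Log2 intensity of the 4 CML genes above the lowest value in each plant (points), with group mean and SD (black, n = 3), over the outside, air, low and high groups. All panels span the same log2 range, and the dotted line is the lowest value, 2.11. The high plants lie above all other plants in each panel, and CML42 has no overlap between any groups. How many of all probe sets lack such overlap was not counted.

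Among the calmodulin partners, IQD24 (AT5G07240) had the largest fall. It read 9.00, 9.49 and 8.97 in outside plants, 9.40, 9.71 and 9.19 in air plants, 9.25, 9.32 and 9.37 in low plants and 6.49, 6.40 and 6.28 in high plants. The high plants stood far below the others, which overlapped among themselves. The high plants averaged 6.39 ± 0.11 and the air plants 9.43 ± 0.26 (SD, n = 3 each), so that IQD24 fell by 3.04 ± 0.16 (SE) on the log2 scale, 8.24-fold (adjusted p = 1.64e-06). Low minus air was -0.12, with a 95% interval of -0.48 to 0.24.

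IQD22 (AT4G23060) followed at a smaller size. Its values were 7.55, 8.67 and 7.97 in outside plants, 8.08, 8.52 and 7.81 in air plants, 7.48, 7.72 and 7.79 in low plants and 6.43, 6.36 and 4.99 in high plants. High plant 3 was the lowest by more than a log2 unit, and all 3 high plants stood below the others. IQD22 fell by 2.21 ± 0.41 (SE) in high against air (adjusted p = 0.0027), and by 1.74 (adjusted p = 0.0037) without high plant 3.

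IQD33 (AT5G35670) read 4.44, 4.39 and 4.16 in outside plants, 4.61, 5.43 and 4.62 in air plants, 4.06, 4.34 and 4.06 in low plants and 3.56, 3.56 and 2.99 in high plants. IQD28 (AT1G14380) read 7.79, 7.84 and 7.87 in outside plants, 7.54, 6.74 and 7.09 in air plants, 7.47, 7.44 and 6.81 in low plants and 5.66, 5.63 and 6.28 in high plants. In both genes every high plant lay below all other plants. In high against air IQD33 fell by 1.52 ± 0.24 (SE, adjusted p = 0.0011) and IQD28 by 1.27 ± 0.26 (SE, adjusted p = 0.0045).

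Smaller falls in high against air were seen in IQD32 (AT1G19870), IQD31 (AT1G74690) and IQD30 (AT1G18840). IQD32 averaged 7.24 ± 0.10 in high plants and 8.12 ± 0.01 in air plants (SD, n = 3 each) and fell by 0.87 (adjusted p = 0.000814). IQD31 fell by 0.66 (adjusted p = 0.0018), with 9.00, 8.92 and 8.90 in outside plants, 8.57, 8.69 and 8.45 in air plants, 8.85, 8.98 and 8.88 in low plants and 7.81, 7.73 and 8.20 in high plants. IQD30 fell by 0.69 (adjusted p = 0.0225), with 7.65, 7.70 and 7.18 in outside plants, 6.66, 6.60 and 6.53 in air plants, 6.83, 6.79 and 6.93 in low plants and 5.86, 5.54 and 6.31 in high plants. The high and air plants did not overlap in these 3 genes, but the share of all probe sets without overlap was not counted. The call for IQD30 was lost without air plant 1, air plant 2, high plant 1 or high plant 2 (adjusted p from 0.0595 to 0.0726), and the other 11 calls of this comparison held whichever of the 12 arrays was left out.

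IQD23 (AT5G62070) went the other way and was the single IQD gene that rose. It read 6.34, 6.73 and 5.85 in outside plants, 5.62, 5.96 and 5.68 in air plants, 4.68, 5.13 and 5.17 in low plants and 7.27, 7.32 and 7.39 in high plants. The order of the groups was low, air, outside and high, with an overlap between the air and the outside plants alone. High minus air was 1.58 ± 0.22 (SE), or 2.98-fold (adjusted p = 0.000547). Low minus air was -0.76 ± 0.22 (SE), which did not pass (adjusted p = 0.1315), while low against outside fell by 1.31 (adjusted p = 0.0100).

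IQD21 (AT3G49260) and IQD19 (AT4G14750) spread widely among the air plants. IQD21 read 10.39, 10.82 and 10.33 in outside plants, 9.27, 9.58 and 8.10 in air plants, 9.18, 9.96 and 10.05 in low plants and 7.43, 7.94 and 8.82 in high plants. IQD19 read 3.87, 3.18 and 3.66 in outside plants, 3.75, 2.89 and 2.11 in air plants, 3.44, 2.95 and 3.38 in low plants and 2.11, 2.11 and 2.13 in high plants. Air plant 3 lay among the high plants in both genes, and the high plants were at the lowest value for IQD19. High minus air did not pass for IQD21 (-0.92, adjusted p = 0.1757) or IQD19 (-0.80, adjusted p = 0.1333). Without air plant 3, the plant with root marker signal, both passed, at -1.36 for IQD21 (adjusted p = 0.0413) and -1.21 for IQD19 (adjusted p = 0.0138). The size of an IQD19 fall cannot be read from these differences, since the high plants and air plant 3 lay at the lowest value. IQD18 (AT1G01110), close to the lowest value throughout, had -0.05 (adjusted p = 0.9783).

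**Figure D4:**
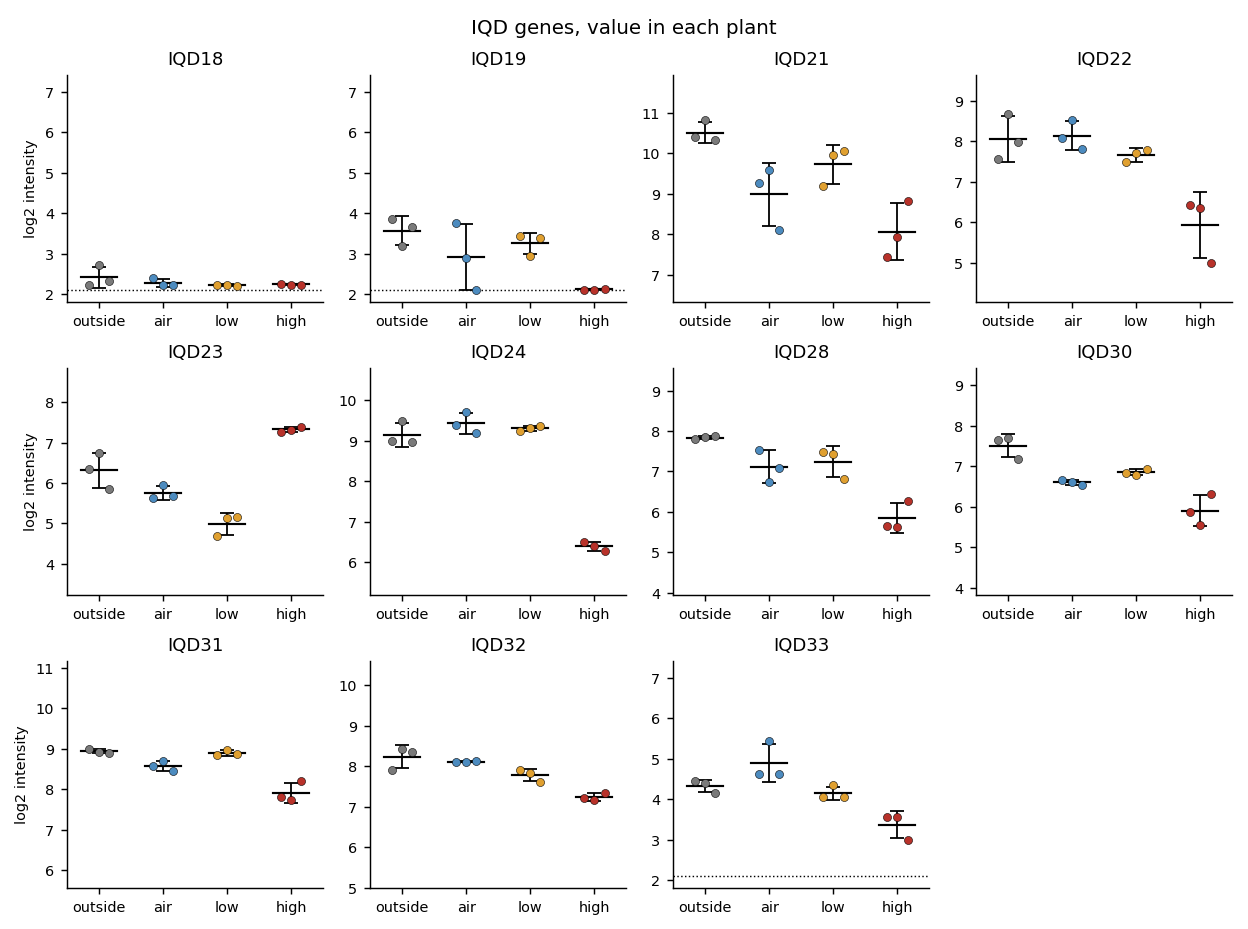
Log2 intensity of the 11 IQD genes above the lowest value in each plant (points), with group mean and SD (black, n = 3), over the outside, air, low and high groups. All panels span the same log2 range, and the dotted line is the lowest value, 2.11. In 7 panels the high plants lie below the air plants without overlap and passed the test, and in the IQD23 panel they lie above all others. The share of all probe sets without such overlap was not counted.

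Low against air compares 1 to 2 ppm with air, again with dose and chamber run not told apart. By limma 0 of 27 members rose and 0 fell, and 7 (25.9%) had an unadjusted p under 0.05, as had 17.9% of all probe sets. Over all probe sets 0.756% rose and 0.488% fell, so a count of 0 was close to the background. Median changes were 0.71 for CML, 0.00 for IQD and 0.00 for GLR genes. CML23 had the highest value (1.07 ± 0.46 SE, adjusted p = 0.2722, 95% interval 0.02 to 2.12), and CML30 had 0.82 (-0.09 to 1.73). These intervals, not adjusted over genes, reached close to 0 at one end and past a 2-fold rise at the other. GLR2.7 had the lowest value (-1.08 ± 0.25 SE, adjusted p = 0.0772). It passed in 1 of 12 fits that left out an array, at -1.38 (adjusted p = 0.0025) without air plant 1, the air plant nearest to the low plants. The highest adjusted p of these fits was 0.2575, without air plant 3.

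High against low compares the concentrations. Again 4 members (14.8%) rose and 9 (33.3%) fell, beside 15.5% and 18.3% of all probe sets. This comparison and high against air share the high plants, so their calls are not independent. CML23 rose by 2.51 ± 0.46 (SE, adjusted p = 0.0026), CML41 by 1.23 ± 0.38 (SE, adjusted p = 0.0341) and CML42 by 1.12 ± 0.23 (SE, adjusted p = 0.0045). CML30 had 0.85, with a 95% interval of -0.06 to 1.75, and the same 0.85 passed (adjusted p = 0.0078) when air plant 3 no longer entered the shared variance. IQD23 rose by 2.33 ± 0.22 (SE, adjusted p = 5.67e-05), the low plants being its lowest group.

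The 9 falls were all IQD genes. High minus low was -2.92 for IQD24 (adjusted p = 2.35e-06), -1.74 for IQD22 (adjusted p = 0.0102), -1.67 for IQD21 (adjusted p = 0.0208) and -1.38 for IQD28 (adjusted p = 0.0029). IQD19 fell by at least 1.14 (adjusted p = 0.0389). IQD31 (-0.99), IQD30 (-0.95), IQD33 (-0.78) and IQD32 (-0.54) passed as well. Of the 13 calls 9 held whichever array was omitted. CML41 lost its call without low plant 2 or 3 or high plant 1 or 2 (adjusted p up to 0.1203), IQD21 without the same 4 arrays (up to 0.0762) and IQD33 without any of the low plants or high plants 2 or 3 (up to 0.1129). IQD19 lost its call in 8 of 12 such fits: without any of the low or high plants, outside plant 3 or air plant 2 (adjusted p up to 0.1086).

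Air against outside asks what the ventilated chamber did without added formaldehyde. Of the 27 members 0 rose and 1 (3.70%) fell, beside 3.10% and 2.50% of all probe sets, and 9 (33.3%) had an unadjusted p under 0.05, as had 19.8% of all probe sets. The gene that fell was IQD30, whose air plants all lay below the outside plants. The difference was -0.91 ± 0.20 (SE, adjusted p = 0.0330), and it passed in 4 of 12 fits that left out an array, those without air plant 1, high plant 2, high plant 3 or outside plant 3 (adjusted p up to 0.0952, without outside plant 1). Without air plant 3, 3 other members passed: CML42 (1.13, adjusted p = 0.0166), CML30 (1.00, adjusted p = 0.0427) and GLR3.3 (-0.67, adjusted p = 0.0304). Without air plant 1, GLR2.7 (1.16, adjusted p = 0.0063) and IQD19 (-1.07, adjusted p = 0.0499) passed beside IQD30, and without high plant 3 so did IQD31 (-0.37, adjusted p = 0.0216). On all plants IQD21 had the lowest value (-1.53, adjusted p = 0.0991) and CML42 the highest (0.86, adjusted p = 0.0681), both without overlap between the groups.

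Set against the outside plants in place of the air plants, high plants had 5 members (18.5%) higher and 11 (40.7%) lower, beside 16.4% and 21.1% of all probe sets. These were 4 of 5 CML genes and IQD23 as rises, and 9 of 15 IQD and 2 of 7 GLR genes as falls. CML23 rose by 4.21 (adjusted p = 0.000101), CML42 by 2.70 (adjusted p = 2.09e-05), CML30 by 2.13 (adjusted p = 0.0024) and CML41 by 1.38 (adjusted p = 0.0184). The call for CML41 was lost without high plant 1, high plant 2 or outside plant 1 (adjusted p up to 0.0686). High minus outside was -2.76 for IQD24 (adjusted p = 2.25e-06), -2.45 for IQD21 (adjusted p = 0.0025) and -1.98 for IQD28 (adjusted p = 0.000296). In low against outside 1 member rose and 1 fell (3.70% each), beside 4.03% and 3.77% of all probe sets. The rise was CML42, at 8.36 ± 0.26 in low plants and 6.78 ± 0.12 in outside plants (SD, n = 3 each; 1.57, adjusted p = 0.0055), and the fall was IQD23. Without 1 of 4 arrays, low against outside also passed for CML23 (1.69, adjusted p = 0.0410 without air plant 1), CML30 (1.29, adjusted p = 0.0067 without air plant 3), IQD30 (-0.66, adjusted p = 0.0379 without high plant 3) and IQD32 (-0.61, adjusted p = 0.0117 without outside plant 1), and for GLR3.3 (without air plant 3) and GLR3.6 (without air plant 1). The call for IQD23 was lost with the arrays of both groups alone (adjusted p = 0.0662), where CML30 passed (adjusted p = 0.0106), and the 2 calls became 4 with arrays centred on their medians and 5 with dim probe sets left out.

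Of 35 further calcium genes listed by locus, 9 had a probe set, and in high against air 1 rose and 5 fell, beside 14.7% and 19.9% of all probe sets, with a median change of -0.59 beside 0.00. CaS (AT5G23060), a calcium-binding protein of the chloroplast thylakoid with a part in stomatal closure, read 11.31, 11.17 and 11.62 in high plants 1 to 3 and 12.60, 13.60 and 13.39 in air plants. It fell by 1.83 ± 0.25 (SE, adjusted p = 0.000425), with no overlap between the groups. CRT1b (AT1G09210), a calcium-binding chaperone of the endoplasmic reticulum, averaged 9.07 in high plants and 10.41 in air plants and fell by 1.35 ± 0.14 (SE, adjusted p = 6.9e-05). AT5G07340 averaged 5.82 in high plants and 7.27 in air plants and fell by 1.46 (adjusted p = 0.000329). Smaller falls, named after their values were seen, were AT3G16940 (-0.72, adjusted p = 0.0032) and NCL (AT1G53210), annotated as a sodium and calcium exchanger (-0.59, adjusted p = 0.0047). The rise was AT4G32060, by 0.58 (adjusted p = 0.0026), likewise named after its value was seen.

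In low against air AT3G16940 alone passed among these 9, with a fall of 0.87 (adjusted p = 0.0302). Over all probe sets 0.756% rose and 0.488% fell. An unadjusted p under 0.05 was found in 6 of 9, beside 17.9% of all probe sets and 25.6% of those above the lowest value. In high against low 2 rose, AT2G46600 by 0.67 (adjusted p = 0.0020) and AT1G67310 by 0.66 (adjusted p = 0.0418). The 4 that fell were CaS, AT5G07340, CRT1b and NCL. Of all probe sets 15.5% rose and 18.3% fell, and of those above the lowest value 22.3% and 26.7%. The 2 that rose were named after their values were seen. In air against outside 0 of 9 passed by limma, beside 3.10% of all probe sets that rose and 2.50% that fell. An unadjusted p under 0.05 was found in 0 of 9, beside 19.8% of all probe sets and 28.3% of those above the lowest value. Another 2 genes carry a symbol of the same families as a synonym, ATGLR1.2 and AT1G76640 (CML39), and lay between 2.11 and 2.14 in all plants.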

How the data were processed

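The authors deposited log2 intensities per probe set, with 1 array for each of 12 plants. GCRMA is the method in the submitters' processing notes; the sources used here name neither its version nor its options, and the scans were not used here. GCRMA corrects background and sets dim probe sets to a shared lowest value, which hides changes there. Of 22810 probe sets, 64 array controls were left out. The supplied annotation paired 13513 of the other 22746 with 1 gene, 503 with several and 8730 with none. All 27 members were found in the reference gene table (TAIR10.1, used for names and neighbours), with the same symbol. Depth has no meaning for arrays, and 3 plants per group limit the precision.

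Values were used as deposited. For all 22746 probe sets a linear model with 4 group means was fitted in limma 3.58.1 (R 4.3.3) to all arrays together, leaving 8 residual degrees of freedom. Variances were moderated towards a trend on the mean level, tests were two-sided, and p-values were adjusted by Benjamini and Hochberg. An adjusted p in the text is limma's. The fit was tested on simulated data. Tables used Python 3.11.15 with pandas 2.3.3, and plots matplotlib 3.10.9.

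Every member was named. Values in each plant were given for members called in air against outside, high against low, or either concentration against air, if they changed by at least 1 on the log2 scale there and their groups did not overlap, and for a few others. Further calcium genes were named at the same size of change, with exceptions marked. The members, the further calcium genes and the markers were chosen with earlier results of these data known. Alternatives were 2 other scalings, a filter on dim probe sets, other variance models, the arrays of 2 groups alone, a replicate block, each array omitted once, a 2-fold threshold and the outside plants as control. The labels do not pair same-numbered plants.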

Additional observations from a re-analysis of the deposited data

How the results depend on the processing

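In high against air the 12 calls became 9 to 16 under the alternatives and 11 to 14 with single arrays left out, and in high against low the 13 calls became 9 to 14, all within 1.5 times. With the arrays of high and air alone, CML30 (adjusted p = 0.0809), GLR2.7 (0.0540) and IQD30 (0.0864) lost their calls, and the total was 9. Singly followed were 30 values, those called or changed by at least 1 on the log2 scale. Their 585 alternatives left 535 on their side of the threshold, 42 without their call, 8 with a new one and 0 with the direction turned. Many alternatives, such as other variance models or arrays omitted from other groups, cannot move the change itself. The values were also picked for a call or size, so the 0 is no sign of stability. Over all members, 4 comparisons and 19 settings, 2020 values held 23 calls gained and 41 lost. CML41 in high against air passed with arrays centred on their medians (0.0288) and with dim probe sets left out (0.0210), and in high against low it did not pass with quantile normalization (0.0535). GLR2.7 fell in high against air but not in high against outside.

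In low against air the 0 calls became 1 (GLR2.7) with dim probe sets left out and 2 (CML42 and IQD23) with the outside plants as control, and 0 to 1 with single arrays left out. In air against outside the 1 call became 3 with arrays centred on their medians, 4 with dim probe sets left out, 0 with the arrays of both groups alone, 0 with the replicate block and 0 with a 2-fold threshold, and 0 to 3 with single arrays left out. The calls added were CML42 and IQD21 under both settings and GLR2.7 with dim probe sets left out. With the replicate block, high against air had 12 calls and high against low 12, the one lost being CML41. The causes of these changes were not tested. Deviations of same-numbered plants from their group means correlated at -0.2727 to 0.2311, and those of differently numbered plants at -0.3462 to 0.3096. A pairing by number was thus not seen, though 3 plants per group cannot exclude it. Of the 7 members at the lowest value, GLR2.8 was called under quantile normalization, at a change of -0.0024 in high against air.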
